A study of Mus musculus with 6 samples.

Results

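The 3p strands of the let-7 and miR-98 precursors were examined in heart muscle wall (myocardium) of mice sampled at 2 intervals after death. Members were all mature miRNAs whose name begins with mmu-let-7 or mmu-miR-98 and ends in 3p. This rule was met by 12 of the 984 deposited miRNAs: mmu-let-7a-1-3p, mmu-let-7a-2-3p, mmu-let-7b-3p, mmu-let-7c-1-3p, mmu-let-7c-2-3p, mmu-let-7d-3p, mmu-let-7e-3p, mmu-let-7f-1-3p, mmu-let-7f-2-3p, mmu-let-7g-3p, mmu-let-7i-3p and mmu-miR-98-3p, named below without the species prefix. Small RNA libraries came from myocardial tissue at a post-mortem interval of 0 h (n = 3) and of 6 d (n = 3). The strain, age and sex of the mice, the storage of the bodies and whether each library came from its own animal were not stated in the sources used, so a p-value here measures the spread between libraries alone, and that spread may be technical. The comparison of the intervals asks which miRNAs differ with time since death, the subject of the series title.

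let-7 miRNAs are made from short RNA hairpins that Dicer cuts to a duplex. The 5p strand is usually kept by Argonaute as the guide that represses target mRNAs, and the 3p strand, the passenger, is usually discarded, so it is found at much lower levels. The let-7 5p guides are abundant in differentiated tissue, heart muscle included, where they hold back growth-promoting genes. The 3p strands pair with those guides in the hairpin and carry other seeds, the bases 2 to 8 that select targets.

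All 12 names matched a mature sequence of RefSeq (GRCm38.p6). The sequences below are those on which the comparisons turn, 5′ to 3′, with the seed in capitals. They are shown because they set which members can be told apart by their reads.
let-7a-1-3p, also let-7c-2-3p: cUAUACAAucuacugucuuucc
let-7b-3p: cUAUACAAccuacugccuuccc
let-7f-1-3p: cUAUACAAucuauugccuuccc
miR-98-3p: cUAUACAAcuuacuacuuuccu
let-7f-2-3p: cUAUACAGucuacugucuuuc
let-7d-3p: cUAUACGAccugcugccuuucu
let-7g-3p: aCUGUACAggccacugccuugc
let-7i-3p: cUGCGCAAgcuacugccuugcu
The 12 rows held 11 distinct sequences and 8 seeds. The seed UAUACAA was shared by 5 rows, those of let-7c-2-3p, let-7a-1-3p, let-7b-3p, let-7f-1-3p and miR-98-3p, and each other seed belonged to 1 row. let-7c-2-3p and let-7a-1-3p have the same 22 bases, and their reads differed by at most 3 in any library, so they are 1 measurement written in 2 rows. Whether a read of that sequence was counted in both rows is not stated. Counted from 1 at the 5′ end of let-7a-1-3p, let-7f-2-3p differed from it over its 21 bases by A8G alone. let-7d-3p differed from it by A7G, U9C, A12G, U16C and C22U. let-7b-3p and let-7f-1-3p differed from each other at 2 bases, so the split of reads among these close sequences depends on the mismatches allowed in mapping, which are not given.

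The guides opposite these strands are alike where the 3p strands are not. Of the 10 let-7 and miR-98 rows that are no 3p strand, 9 carried the seed GAGGUAG, and let-7j was the exception. let-7d-5p is the only matched guide of the family here that begins with A and not with U.
let-7d-5p: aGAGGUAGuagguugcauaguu
let-7g-5p: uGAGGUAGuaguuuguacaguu
miR-98-5p: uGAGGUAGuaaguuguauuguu
The hairpins of the precursors whose strand balance differed between the intervals are given next, with the 3p strand in capitals, to show where each passenger lies opposite its guide.
let-7d hairpin: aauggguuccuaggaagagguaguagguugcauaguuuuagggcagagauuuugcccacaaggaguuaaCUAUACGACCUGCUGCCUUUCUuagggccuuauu
let-7g hairpin: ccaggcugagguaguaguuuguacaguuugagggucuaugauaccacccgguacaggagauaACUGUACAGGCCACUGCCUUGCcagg
miR-98 hairpin: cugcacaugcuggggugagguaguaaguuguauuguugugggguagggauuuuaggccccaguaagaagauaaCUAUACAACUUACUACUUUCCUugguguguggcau
In GRCm38.p6 the let-7d hairpin lies at chr13:48536012-48536114 on the minus strand, with let-7f-1 (chr13:48537829-48537917) and let-7a-1 (chr13:48538179-48538272) beside it. All 3 overlap exons of the long noncoding RNA 6720427I07Rik on the same strand in GENCODE vM21. The miR-98 hairpin (chrX:151913214-151913321) and that of let-7f-2 (chrX:151912346-151912428) lie on the plus strand within an intron of Huwe1, a ubiquitin ligase gene, on its strand. The let-7g hairpin (chr9:106178840-106178927) lies within an intron of Wdr82 on the same strand, and let-7e (chr17:17830352-17830444) within an intron of Spaca6. let-7c-2 (chr15:85706603-85706697) and let-7b (chr15:85707319-85707403) are neighbours in exons of the noncoding RNA Lncppara. The deposited files hold no coordinates, and these positions come from the reference alone.

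The 0 h libraries held 4468547 to 7906557 miRNA reads and the 6 d libraries 617069 to 1889594. Levels are in normalised CPM, reads per 1000000 scaled by a further factor for each library. That factor is the authors' for 5 libraries and was derived here for 0 h replicate 1. A floor of 3 reads stood at 0.463 to 0.730 normalised CPM at 0 h and at 1.91 to 3.97 at 6 d. Floors and intervals cover counting error only. The cardiac markers fixed for this check (miR-1a-3p, miR-133a-3p, miR-208a-3p and miR-499-5p) were present in every library, with summed levels of 256870 to 491590 normalised CPM at 0 h and 113380 to 535890 at 6 d. These sums are nearly all miR-1a-3p, which did not pass the test, while miR-133a-3p rose (log2 difference 1.43) and miR-208a-3p (-1.49) and miR-499-5p (-1.48) fell. Of the markers of other tissues, the 6 epithelial markers summed to 61.3 to 119 normalised CPM at 0 h and to 1315 to 2333 at 6 d, and all 6 rose. The liver marker miR-122-5p spanned 668 to 1406 at 0 h and 2086 to 23460 at 6 d, the skeletal muscle marker miR-206-3p 8.34 to 15.3 and 685 to 1440, and both rose. The 3 erythroid markers together spanned 22959 to 30098 and 57666 to 105050, and of them miR-451a rose while miR-144-3p (-0.77) and miR-486a-5p (-0.27) did not pass. None of these markers was at 0. Their part in the values that follow was not tested, and in bulk tissue fewer cells of a type and less RNA per cell cannot be told apart.

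At both intervals let-7d-3p was the most abundant 3p strand, followed by the sequence shared between let-7c-2-3p and let-7a-1-3p. At 0 h mmu-let-7d-3p averaged 523 ± 70.6 normalised CPM and mmu-let-7a-1-3p 267 ± 65.2 (SD, n = 3 each). mmu-let-7b-3p (27.9) and let-7f-1-3p (27.5) came next and overlapped each other. let-7f-2-3p, let-7e-3p, let-7c-1-3p and let-7i-3p lay between 6.52 and 11.1, each overlapping its neighbour in this order. miR-98-3p (2.04), let-7g-3p (0.719) and let-7a-2-3p (0.188) closed it without overlap. At 6 d the first 5 places held the same sequences. Below them miR-98-3p had moved from the tenth to the seventh place, with 12.7 ± 5.69 normalised CPM (SD, n = 3), and overlapped its neighbours in the order, let-7f-2-3p and let-7i-3p. The 3p strands are 21 (let-7a-2-3p and let-7f-2-3p) or 22 bases long.

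**Figure D1:**
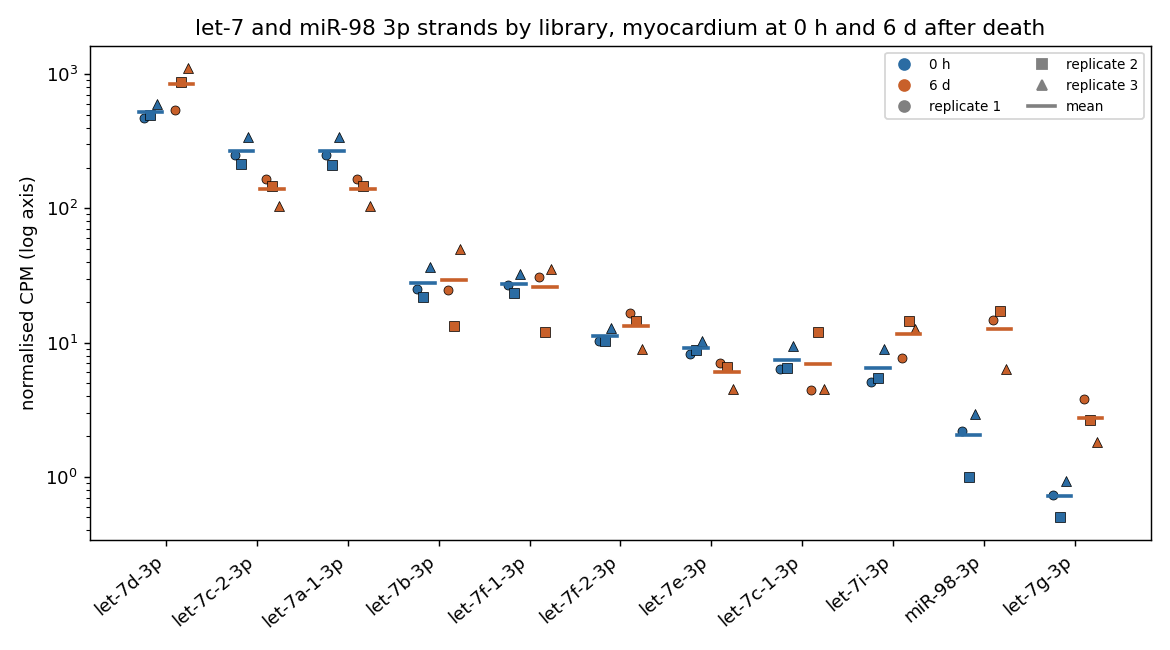
Level of each tested 3p strand in each library, in normalised CPM on a log axis (blue 0 h, orange 6 d, symbols the 3 replicates, lines the means). let-7d-3p is highest in all 6 libraries, and the 2 rows of the shared sequence, let-7c-2-3p and let-7a-1-3p, lie lower at 6 d. miR-98-3p and let-7g-3p lie higher in every 6 d library than in any 0 h library. In 6 d replicates 2 and 3 let-7g-3p had 2 reads each, under the floor of 3 reads.

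Of the 12 members, 11 passed the filter for testing, a normalised CPM of at least 1 in at least 3 libraries, and let-7a-2-3p did not. Between 6 d and 0 h, miR-98-3p rose, and both rows of the shared sequence, let-7c-2-3p and let-7a-1-3p, fell (limma, Benjamini-Hochberg adjusted p under 0.05 over all 470 tested miRNAs). Counted as sequences this was 1 higher and 1 lower of 10. Over all tested miRNAs 37.9% were called, as 16.0% rose and 21.9% fell, so the share of 3p strands called did not exceed the background. The median log2 difference was -0.09 over the 11 tested members, -0.33 over all tested miRNAs and -0.50 over 67 tested 3p strands of other precursors that have fewer 3p than 5p reads, of which 6 rose and 20 fell. let-7g-3p and miR-98-3p passed the filter only through the 6 d libraries, miR-98-3p because 0 h replicate 2 stood at 0.999 normalised CPM. These counts and medians over the tested members are therefore a description.

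miR-98-3p, the passenger of the X-linked precursor beside let-7f-2, had 9, 6 and 19 reads in the 0 h libraries and 23, 13 and 7 in the 6 d libraries, which were shallower. Its level was 2.19, 0.999 and 2.93 normalised CPM at 0 h and 14.6, 17.2 and 6.32 at 6 d. Every 6 d library stood above every 0 h library, an order seen in 19.8% of all tested miRNAs. The log2 difference was 2.12 ± 0.49 (SE, n = 3 each, limma adjusted p = 0.00881). miR-98-3p entered this test only through its 6 d levels, and with no filter on low values its limma adjusted p was 0.0109. It was called in all 15 other settings tried, with log2 differences from 1.28 to 2.85 (adjusted p from 0.000218 to 0.0371). Apart from DESeq2 and the setting with no filter, these settings keep a filter on levels, so they do not remove that selection. Over pooled reads the share of miR-98-3p was 7.76 times higher at 6 d, with a 95% exact interval of 4.83 to 12.5. The guide of the same hairpin, miR-98-5p, stood at 207, 165 and 210 normalised CPM at 0 h and at 206, 365 and 217 at 6 d, and its log2 difference of 0.39 ± 0.34 did not pass (limma adjusted p = 0.382). Within the Huwe1 intron, let-7f-2-3p did not pass the test (log2 difference 0.21 ± 0.39, limma adjusted p = 0.693). The ratio of miR-98-3p to let-7f-2-3p reads was 0.214, 0.0968 and 0.229 at 0 h and 0.885, 1.18 and 0.700 at 6 d. This ratio was chosen after its values were seen.

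The sequence shared by let-7c-2-3p and let-7a-1-3p was the only other called. In the let-7a-1-3p row the 0 h libraries had 1033, 1273 and 2196 reads, and the 6 d libraries 261, 110 and 116. Its level was 251, 212 and 339 normalised CPM at 0 h and 166, 146 and 105 at 6 d, so every 6 d library stood below every 0 h library, an order seen in 30.9% of all tested miRNAs. The log2 difference was -0.94 ± 0.33 (SE, n = 3 each, limma adjusted p = 0.0487), close to the threshold. The call was lost with library totals alone (log2 difference -0.48, adjusted p = 0.434), with RLE factors (-0.72, 0.118), with edgeR (-0.81, 0.0982) with DESeq2 (-0.72, 0.104) and with no filter on low values (adjusted p = 0.123). Leaving out 1 library lost it without 0 h replicate 1 (adjusted p = 0.119), 2 (0.0652) or 3 (0.163) and without 6 d replicate 2 (0.0913) or 3 (0.125). Its direction did not change in any of these settings. Both guides opposite it stood lower too, let-7a-5p by -1.54 ± 0.39 (limma adjusted p = 0.0130) and let-7c-5p by -0.62 ± 0.36, which did not pass (limma adjusted p = 0.208).

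For let-7d-3p the 0 h libraries held 1931, 2975 and 3904 reads and the 6 d libraries 854, 665 and 1222. Its level was 470, 495 and 603 normalised CPM at 0 h and 544, 880 and 1103 at 6 d. The groups overlapped, with 6 d replicate 1 below 0 h replicate 3, and the log2 difference of 0.64 ± 0.35 did not pass (limma adjusted p = 0.183). It was called without 6 d replicate 1 (0.92, limma adjusted p = 0.0430) and with DESeq2 (0.92, adjusted p = 0.0482). Its guide let-7d-5p fell over the same libraries, from 2058, 1997 and 2057 to 522, 1385 and 858 normalised CPM (log2 difference -1.25 ± 0.38, limma adjusted p = 0.0257). That fall was not called by edgeR (-0.95, edgeR adjusted p = 0.0902).

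let-7g-3p, the rarest tested member, was counted 3, 3 and 6 times in the 0 h libraries and 6, 2 and 2 times in the 6 d libraries. This corresponds to 0.730, 0.499 and 0.927 normalised CPM at 0 h and 3.82, 2.65 and 1.80 at 6 d. The levels in 6 d replicates 2 and 3 lay under the floors of 3 reads there, 3.97 and 2.71. In 6 d replicate 2 a single read already stands at 1.32 normalised CPM, above every 0 h level of let-7g-3p. All 6 d libraries stood above all 0 h libraries, but the log2 difference of 1.10 ± 0.41 did not pass (limma adjusted p = 0.0570). It was called with RLE factors (1.23, limma adjusted p = 0.0428) and not with DESeq2 (2.18, adjusted p = 0.0980). Because let-7g-3p entered the main test only through its 6 d levels, its limma p is of use only with no filter on low values. There it did not pass either (limma adjusted p = 0.144). The pooled share was 5.11 times higher at 6 d, with a 95% exact interval of 1.98 to 12.9. let-7a-2-3p had 1 read in each 0 h library and 0 of 3206333 reads at 6 d, which allows a share of up to 0.936 reads per 1000000, so no difference was detectable at this depth.

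The remaining members, let-7b-3p, let-7c-1-3p, let-7e-3p, let-7f-1-3p, let-7f-2-3p and let-7i-3p, had between 5 and 55 reads in each 6 d library and log2 differences from -0.54 (let-7e-3p) to 0.74 (let-7i-3p), none past the threshold. let-7i-3p stood at 5.11, 5.49 and 8.95 normalised CPM at 0 h and at 7.64, 14.6 and 12.6 at 6 d (limma adjusted p = 0.199). let-7e-3p was lower in every 6 d library, with 8.28, 8.82 and 10.3 against 4.51 to 7.0 (limma adjusted p = 0.288). let-7b-3p and let-7f-1-3p were uneven at 6 d. let-7b-3p stood at 24.8, 13.2 and 49.6 normalised CPM there, and let-7f-1-3p at 30.6, 11.9 and 35.2, with 6 d replicate 2 lowest for both. The signs of let-7b-3p, let-7c-1-3p and let-7f-1-3p, near 0, changed with the scaling. The 5 rows that share the seed UAUACAA did not move alike, since their log2 differences ran from -0.94 for the shared sequence to 2.12 for miR-98-3p.

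Among the guides, the 10 other let-7 and miR-98 rows, the median log2 difference was -0.80. Of these rows 4 fell and 0 rose, where 21.9% of all tested miRNAs fell and 16.0% rose. Besides let-7a-5p and let-7d-5p the guides that fell were let-7e-5p (-1.28 ± 0.36, limma adjusted p = 0.0193) and let-7g-5p (-2.27 ± 0.37, limma adjusted p = 0.00138). The miRNAs transcribed beside let-7a-2, let-7c-1 and let-7e were listed together with their paralogs. Of 9 tested members of the miR-99, miR-100 and miR-125 families 7 fell and 0 rose in the same limma test, with a median of -2.08. For all 9, every 6 d library was below every 0 h library, an order seen in 30.9% of all tested miRNAs. With edgeR 1 of 10 tested 3p strands rose and 0 fell, 0 of 10 guides rose and 3 fell, and 0 of 9 clustermates rose and 7 fell, where 22.3% of all tested miRNAs rose and 20.7% fell.

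**Figure D2:**
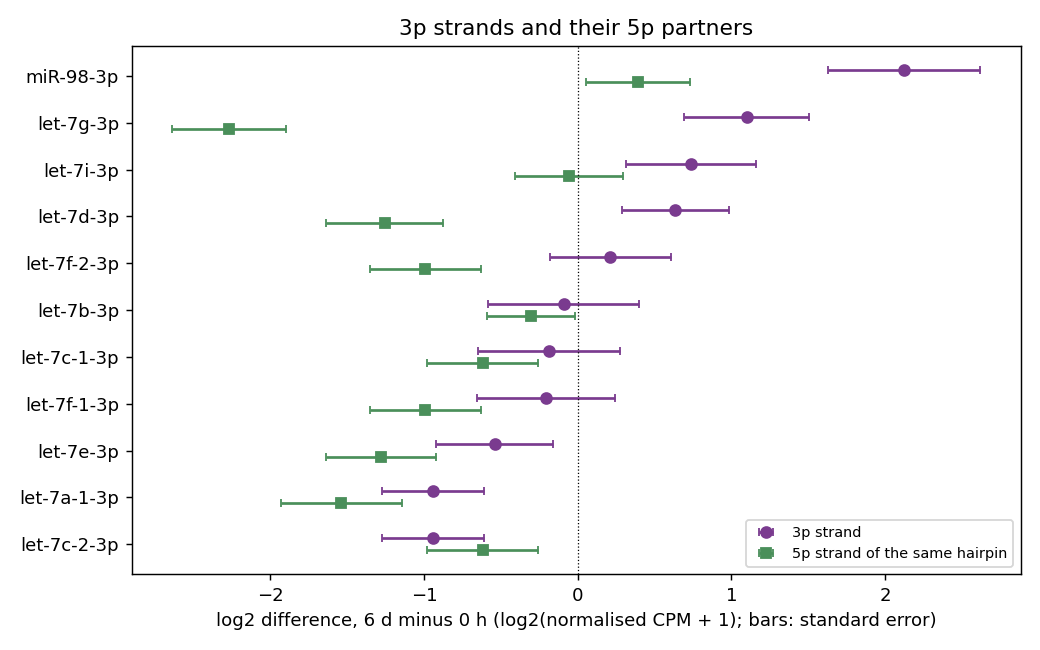
Log2 difference between 6 d and 0 h (log2(normalised CPM + 1), bars the standard error) of each tested 3p strand (circles) and of its 5p partner (squares). let-7a-5p, let-7c-5p and let-7f-5p each serve several hairpins, so the let-7c-5p and let-7f-5p values appear beside 2 strands each. For let-7d and let-7g the strands lie on opposite sides of 0, at 0.64 and -1.25 and at 1.10 and -2.27. So do those of let-7f-2 (0.21 and -0.99) and let-7i (0.74 and -0.058).

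The balance of the arms, log2 of (3p reads + 1) over (5p reads + 1), compares strands of 1 hairpin within a library, so no scaling factor enters. Depth does not cancel fully, since the added read weighs more where a strand has few reads, as in the shallower 6 d libraries. For let-7a, let-7c and let-7f, whose guide row serves several hairpins, the 3p rows were summed first, and let-7a and let-7c hold the shared 3p sequence in common. A precursor was tested where a row of each arm passed the filter on low values. The let-7g and miR-98 3p rows did so only through the 6 d libraries. Of 9 family balances, 3 moved toward the 3p strand and 0 toward the 5p strand (limma adjusted p under 0.05 over 130 precursors), let-7g and miR-98 among the 3. Over all 290 precursors with a read in each arm, with no such filter, the same count of 3 was called, again with let-7g and miR-98. Of those 290 precursors 80 were called. Over the 130 precursors of the main test 37.7% were called, as 18.5% moved toward the 3p strand and 19.2% toward the 5p strand. The 6 d libraries stood above all 0 h libraries for 5 of the 9 and for 26.9% of the 130 precursors. Of the 9 differences 8 were positive, all but that of let-7c, with a median of 0.95. Among 62 other precursors with fewer 3p than 5p reads 30 differences were positive, with a median of -0.14. Of these 62 precursors 13 moved toward 3p and 10 toward 5p. Over all 130 precursors 63 differences were positive, with a median of -0.09. As let-7g and miR-98 entered only through the 6 d libraries, the family counts and median are a description.

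For let-7d the 3p strand made up 18.6%, 19.9% and 22.7% of the reads of both strands in the 0 h libraries. In the 6 d libraries it made up 51.0%, 38.8% and 56.2%. Thus 3p reads outnumbered 5p reads in 6 d replicates 1 and 3, which no other family precursor showed in any library. The share averaged 20.4% ± 2.08 (SD, n = 3) at 0 h against 48.7% ± 8.93 (SD, n = 3) at 6 d, and the groups did not overlap. The log2 balance differed by 1.89 ± 0.45 (SE, n = 3 each, limma adjusted p = 0.0173). The call was lost without 0 h replicate 1 (1.81, limma adjusted p = 0.0697), and it held in the other 10 settings tried.

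For let-7g the 3p strand made up 0.00383%, 0.00275% and 0.00450% of the reads of both strands at 0 h. In the 6 d libraries it made up 0.139%, 0.0396% and 0.0519%. Its mean share was the lowest of the family precursors at 0 h, while at 6 d that of let-7i was lower (0.0443% against 0.0768%). The let-7g guide dominated in every library. The 3p strand had 12 reads in all at 0 h and 10 at 6 d. The log2 balance differed by 4.30 ± 0.51 (SE, n = 3 each) and rests on few 3p reads. With no filter on low values, a setting added after the data were seen, the limma adjusted p was 0.00210.

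For miR-98 the 3p strand rose from 1.05%, 0.602% and 1.38% of the reads of both strands to 6.63%, 4.50% and 2.83%. Every 6 d library stood above every 0 h library. The log2 balance differed by 2.22 ± 0.50 (SE, n = 3 each, limma adjusted p = 0.0147). With no filter on low values, the setting added after the data were seen, the limma adjusted p was 0.0216. When both strands had to average at least 10 normalised CPM, let-7g, miR-98, let-7e and let-7i were not tested, and 1 of 5 family balances was called, that of let-7d. In that setting 29 of all 61 precursors tested were called.

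The other 6 balances were not past the threshold. let-7i, with the guide of highest mean level at both intervals, had 0.0157% to 0.0293% of its reads on the 3p strand at 0 h and 0.0285% to 0.0664% at 6 d (log2 difference 0.95 ± 0.49, limma adjusted p = 0.161). let-7f differed by 1.01 ± 0.58 (limma adjusted p = 0.200) and was called without 6 d replicate 2 (1.60, limma adjusted p = 0.0376). let-7e differed by 0.85 ± 0.45, let-7a by 0.60 ± 0.55, let-7b by 0.26 ± 0.57 and let-7c by -0.29 ± 0.51, with limma adjusted p from 0.171 to 0.734.

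**Figure D3:**
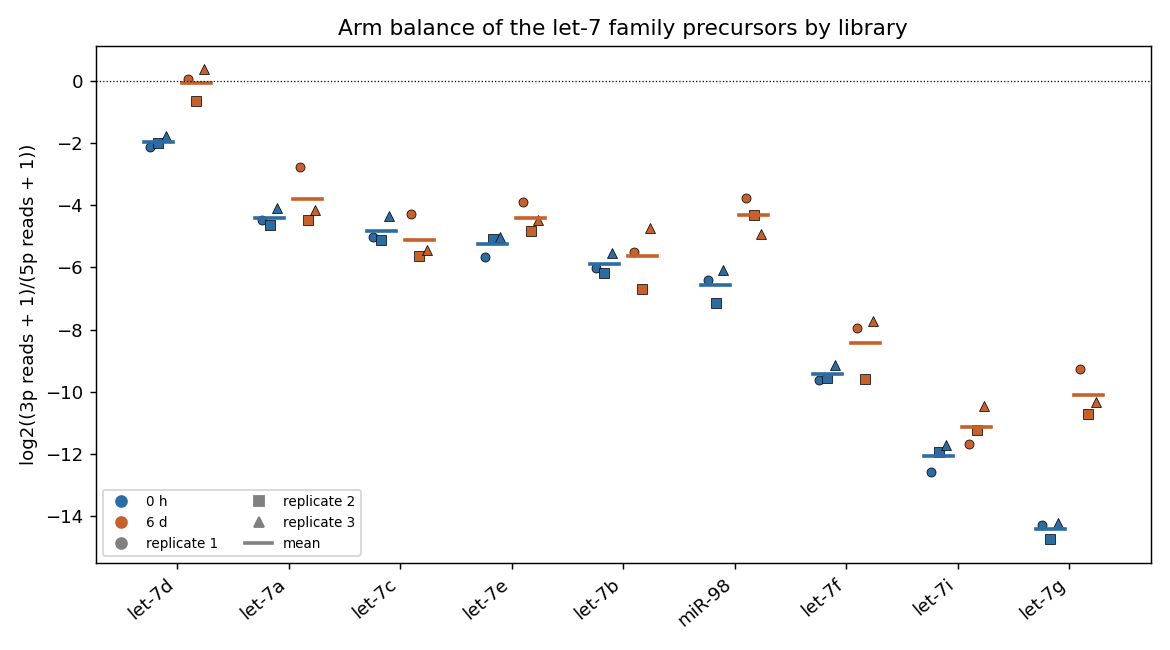
Arm balance of each family precursor in each library, as log2 of (3p reads + 1) over (5p reads + 1), ordered by the 0 h mean (blue 0 h, orange 6 d, symbols the replicates, lines the means, dotted line equal reads). Only let-7d crosses 0, in 2 of 3 libraries at 6 d, and let-7d, miR-98 and let-7g lie higher in all 6 d libraries than in any 0 h library, as do let-7e and let-7i by smaller differences.

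Over the whole family, 3p strands made up 1.05%, 1.20% and 1.47% of let-7 and miR-98 reads at 0 h and 2.03%, 1.53% and 3.37% at 6 d, with both rows of the shared sequence counted. The groups did not overlap, by a small margin between 0 h replicate 3 and 6 d replicate 2. The exact two-sided permutation p was 0.1, the lowest value 3 against 3 libraries can give, and the adjusted p over 8 share measures was 0.2. With the shared sequence counted once, the shares were 0.806% to 1.12% at 0 h and 1.36% to 3.13% at 6 d. Of all miRNA reads, the 3p strands of the family took 0.0990% ± 0.0241 (SD, n = 3) at 0 h against 0.159% ± 0.0900 (SD, n = 3), and the groups overlapped (exact two-sided permutation p = 0.4, adjusted p = 0.64).

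The make-up of the family's 3p reads is given next. No share could pass the exact permutation test, since 3 against 3 libraries cannot give a p under 0.1. let-7d-3p held 44.4%, 49.6% and 43.2% of them at 0 h and 55.2%, 69.6% and 76.8% at 6 d. let-7a-1-3p held 23.8%, 21.2% and 24.3% at 0 h and 16.9%, 11.5% and 7.29% at 6 d, and let-7c-2-3p 23.8%, 21.3% and 24.3% at 0 h and the same shares as let-7a-1-3p at 6 d. For these 3 rows the groups did not overlap, with an exact two-sided permutation p of 0.1 each, the smallest possible, and adjusted p = 0.2. With the shared sequence counted once, let-7d-3p held 59.5% ± 3.16 (SD, n = 3) at 0 h against 76.0% ± 8.58 (SD, n = 3). let-7b-3p, let-7f-1-3p and let-7f-2-3p each held between 0.629% and 3.46% in every library, with overlapping groups.

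**Figure D4:**
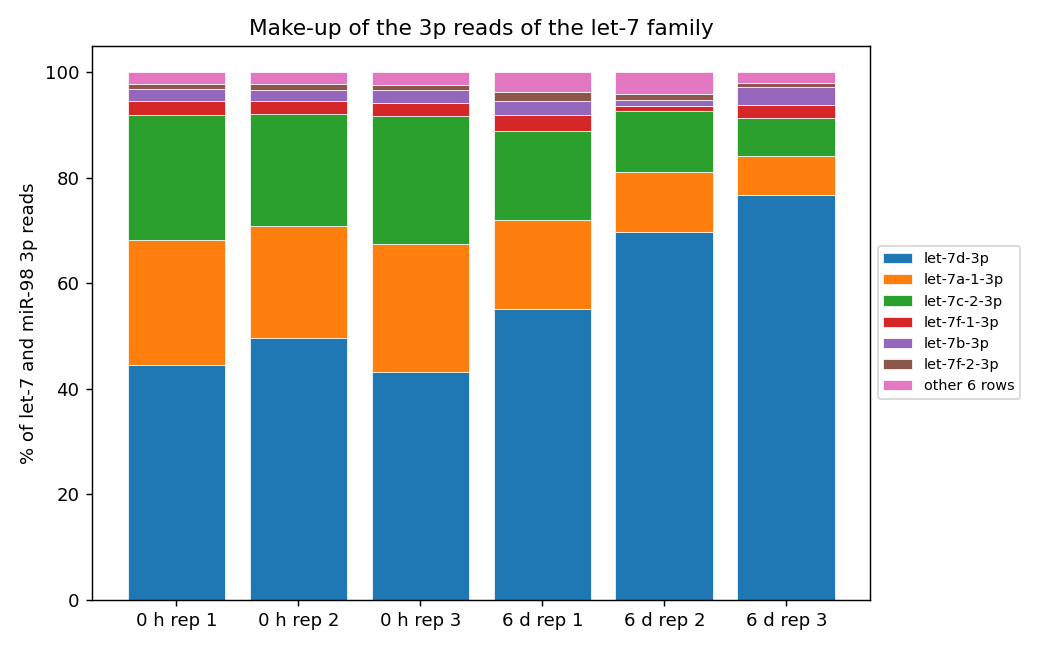
Share of each 3p strand in the 3p reads of the let-7 family, in percent, by library, with the shared sequence shown as its 2 rows. The let-7d-3p part spans 43.2% to 49.6% at 0 h and 55.2% to 76.8% at 6 d, and the parts of the shared sequence are smaller at 6 d.

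let-7d, let-7f-1 and let-7a-1 share the noncoding transcript 6720427I07Rik. Taken from the same reads as the shares above, the ratio of let-7d-3p to let-7a-1-3p reads was 1.87, 2.34 and 1.78 at 0 h and 3.27, 6.05 and 10.5 at 6 d. let-7a-1-3p cannot be told apart from let-7c-2-3p, which lies on another chromosome, so this ratio is not one within the cluster alone. The ratio of let-7d-3p to let-7f-1-3p, free of the shared sequence, was 17.6, 21.1 and 18.7 at 0 h and 17.8, 73.9 and 31.3 at 6 d, and the groups overlapped. let-7f-1-3p had 0.107, 0.111 and 0.0952 reads per let-7a-1-3p read at 0 h and 0.184, 0.0818 and 0.336 at 6 d, and its groups overlapped. For the neighbours let-7b and let-7c-2 the ratio of let-7b-3p to let-7c-2-3p was 0.0997, 0.103 and 0.108 at 0 h and 0.149, 0.0909 and 0.474 at 6 d, also overlapping. These ratios were chosen after their values were seen and were not tested.

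Outside the family, the miRNAs whose pattern over the 6 libraries was nearest that of let-7d-3p were miR-3074-5p, miR-3102-3p, miR-93-3p, miR-299a-5p and miR-299b-5p. Their root mean square distances in centred log2 values were 0.24, 0.25, 0.26, 0.29 and 0.29, against a median of 0.94 over 449 candidates. All 5 are low, with means of at most 10.3 normalised CPM in either interval, and none passed the test between the intervals. miR-299a-5p and miR-299b-5p had the same reads in every library, with 0, 1 and 2 at 6 d, so they count as 1 pattern. Among the 3p strands of the family let-7i-3p was nearest, at 0.20, and miR-98-3p farthest, at 1.01.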

How the data were processed

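Small RNA of 3 libraries at 0 h and 3 at 6 d was used, 1 file per library. The labels' protocols name Trizol for the RNA and a NEBNext small RNA preparation kit. Among the tools in the submitters' processing notes, with roles unstated, are STAR 2.5.3a, cutadapt 2.8 and Trimmomatic 0.39, while counter, annotation and build stay unnamed. Raw read counts fill the deposited file of 0 h replicate 1. The other 5 deposited files hold log2(scaled reads + 1) values. Undoing the log2 gave whole multiples of 1 step per library for 2692 of the 2692 values that could be tested, each within the rounding of its 3 decimals. The largest recovered reads are known to within 0.0347%. The counts of 0 h replicate 1 were scaled by a derived factor of 0.919, so that the 6 factors multiply to 1.

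limma 3.58.1 (trended, robust) was fitted to log2(value + 1) of the 470 miRNAs that reached 1 normalised CPM in 3 or more libraries, and fold changes on this scale understate those of low miRNAs. Arm balances were fitted by limma (robust, without a trend) with 1 read added per arm. Shares were compared by exact permutation. edgeR 4.0.16 and DESeq2 1.42.0 on the recovered reads were alternatives. The fits were also run on simulated counts with the same dispersion for every miRNA, and the arm fit there left out precursors with several 3p rows. The outcome is not given, and no result here rests on it. The members, lists and tests were chosen with earlier results of these data known. Named miRNAs are all members, their 5p partners, the clustermate and marker lists, and the 5 nearest to the most abundant member by distance over the 6 libraries. Sequences and coordinates are RefSeq's (GRCm38.p6), and gene overlaps GENCODE vM21's.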

Additional observations from a re-analysis of the deposited data

How the results depend on the processing

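Of 11 tested members 3 rows were called, and 1 with no filter on low values, with library totals alone or with edgeR. With 1 library left out it was 1 to 4 (lowest without 0 h replicates 1, 2 or 3 or 6 d replicates 2 or 3, highest without 6 d replicate 1), and the calls over all miRNAs ran from 114 (without 0 h replicate 1) to 179. Scaling by library totals alone moved the median of all miRNAs from -0.33 to 0.02 and left 83 higher and 40 lower of 123 calls, against 75 and 103. With RLE factors 90 were higher and 84 lower, with edgeR 81 and 75, and with DESeq2 97 and 74. Of the 9 family arm balances 3 were called, where 49 of all 130 precursors were. When both arms had to average 10 normalised CPM, 1 of 5 family balances and 29 of all 61 precursors were called. With 1 library left out 2 to 4 family balances were called, where 24 to 48 of all 130 precursors were.

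Log2 differences near 0 changed sign, and none was called where it did. In the order let-7f-1-3p, let-7b-3p and let-7c-1-3p they were 0.24, 0.36 and 0.22 with library totals alone, 0.0091, 0.12 and 0.0098 with RLE factors and 0.15, 0.30 and 0.062 with DESeq2. With edgeR they were 0.086 for let-7f-1-3p and 0.25 for let-7b-3p. Leaving out single libraries gave -0.49 to 0.26 for let-7f-1-3p, -0.56 to 0.36 for let-7b-3p, -0.60 to 0.023 for let-7c-1-3p and -0.20 to 0.79 for the let-7b balance. Differences in the share of family 3p reads ranged from -0.70 to 0.38 percentage points for let-7f-1-3p, from -0.61 to 0.59 for let-7b-3p and from -0.083 to 0.44 for let-7f-2-3p. The cause was not tested.

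With the replicate block 195 miRNAs, 3 members and 3 balances were called. This changed no call of a member or balance. As a check of pairing, equal replicate numbers gave correlations of deviations of 0.07, 0.06 and 0.27, and the deviations of 0 h replicate 1 were closer to those of 6 d replicate 2 (0.16), so the replicate numbers were treated as names. Depth limits the members with few reads, such as let-7a-2-3p (0 reads at 6 d) and let-7g-3p (10).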
